A study of Danio rerio with 12 samples.

Results

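The genes described here are the amino acid and peptide transporters of the SLC1, SLC3, SLC6, SLC7, SLC15, SLC36, SLC38 and SLC43 families, measured in the gill of zebrafish (Danio rerio). Members were taken by current gene symbol, through the RefSeq accession that each array probe carries. The current annotation holds 88 such symbols, of which 57 had a probe on the array and 31 had none matched by RefSeq accession. Of the 57, 53 had signal well above background on every array of some group and were tested, among 12616 genes tested of 13443 named on the array. The 4 that were not tested were slc1a2a, slc1a7b, slc1a8b and slc1a9, which belong to the glutamate carrier family.

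Gills of adult fish were collected after 96 h without feeding, either from untreated controls or from fish kept in water with nanoparticles of CuO at 0.2 mg/L, ZnO at 4.8 mg/L or NiO at 17.5 mg/L. Each group had 3 samples, and each sample pooled the gills of 10 fish, so variation between single fish was not measured. Per the series' design text, each dose was a fixed fraction of that particle's median lethal concentration, so the particles were not compared at equal mass. Neither sex nor strain of the fish is stated in the labels. Each pool was hybridised to a one-colour Agilent array.

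These transporters move amino acids, short peptides and some neurotransmitters across the cell membrane. SLC7 light chains reach the membrane bound to an SLC3 heavy chain and mostly exchange one amino acid for another, whereas many SLC1, SLC6 and SLC38 carriers use the sodium gradient to concentrate their substrates and SLC15 carriers use protons to take up di- and tripeptides. Several members are known from other vertebrates as targets of the transcription factor ATF4, which acts when amino acids are short, and SLC38A9 is known from mammals as a lysosomal arginine sensor that feeds into the growth kinase complex mTORC1.

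On each array 75.5% to 88.3% of spots were well above background and 0 were saturated. The correlation between replicate arrays, across genes, ran from 0.911 to 0.924 in the controls and from 0.818 to 0.967 in the exposed groups. The deposited series table and the scanner files disagreed on which array is which sample: 2 of 12 table columns held the signals of the array linked to the sample they name, and 10 held those of another sample. Taken in sample order, the table columns held the arrays in the order of slide and then of position on the slide. Which of the 2 sources is right was not settled by this. The scanner files were used. Read by its column names instead, the table gave 0 called members in every comparison and 0 called genes overall with limma. At an unadjusted p under 0.05 there were 3, 2 and 9 members for CuO, ZnO and NiO against control. The share of all genes at that p is not given here, so these counts are not read as a result about the members. Every result below therefore rests on the scanner files' sample links.

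The tissue label was set against marker lists. Of 20 epithelial markers tested 17 were above background on all arrays, as were 18 of 21 ionocyte markers. So were 24 of 25 pancreas and intestine markers and 24 of 28 liver and plasma markers. Fewer were for oocyte (17 of 30) and lens and retina markers (21 of 35). Of the 12616 genes tested, 11121 had a probe above background on all arrays. The epithelial and ionocyte counts therefore do not set gill apart from other tissues, and the tissue label was not tested by them. Transcripts of other tissues were also present and differed between arrays. The median log2 level of 30 oocyte markers was 3.73 to 4.04 in the controls and 2.61 in NiO 1, against -5.48 to -3.55 in the other 8 arrays. That of 35 lens and retina markers was -5.34 in control 3, -4.85 in CuO 3, -5.23 in ZnO 1 and -4.98 in NiO 2, against 0.76 to 2.63 in the other 8. Pancreas and intestine markers stood at -2.83 in ZnO 1 and at 1.94 to 4.11 in the other 11. Liver and plasma markers were low on the same array, at -2.89 in ZnO 1 and at 2.24 to 4.32 in the other 11. In pooled tissue, fewer cells of a type and less RNA per cell cannot be told apart.

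Levels are the log2 processed signal less the 75th percentile of its array, so 0 marks the level below which 75% of the probes of an array lie. Levels of different genes come from different probes and are not set against each other. Differences are on the log2 scale, exposed minus control, with the standard error (SE) of the fit. A gene is called at an adjusted p under 0.05 from limma with Benjamini-Hochberg adjustment over all 12616 genes, and "rose" and "fell" are used for called genes alone. All 3 exposures are set against the same 3 control arrays, so their differences are not independent of each other.

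Of the 53 members tested, 14 were called in at least 1 exposure and 39 in none. The 53 include slc7a6os, which shares the symbol pattern but does not encode a carrier, and which was not called. Under CuO 5 rose, where 11.4% of all genes tested rose, and 4 fell, where 13.7% of all genes fell. Under ZnO 7 rose, against 13.8% of all genes, and 5 fell, against 11.9%. Under NiO 7 rose, against 10.1% of all genes, and 4 fell, against 12.1%. As shares of the 53 members these counts were 9.43% and 7.55% under CuO, 13.2% and 9.43% under ZnO, and 13.2% and 7.55% under NiO. The share that rose under NiO lay above that of all genes and the other 5 lay below it, so apart from that one the shares were no higher among the transporters than among all genes. Of the 53, 4 passed the filter on dim probes through 1 group alone, namely slc1a3b, slc6a3 and slc6a4a through CuO and slc7a6 through the controls, so that a difference for them was built into the filter. Without such genes, 49 members were left, of which 4 were called higher and 3 lower with CuO (beside 11.6% and 13.3% of the 12156 genes left), 7 and 4 with ZnO (14.2% and 11.4%), and 7 and 3 with NiO (10.4% and 11.8%).

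The median difference over the 53 members was 1.12 under CuO, 0.65 under ZnO and 0.70 under NiO, beside 0.42, 0.32 and 0.27 over all genes tested. Positive differences were seen for 44, 38 and 39 of the 53 members, compared with 62.9%, 60.3% and 59.08% of all genes. The median SD within a group was 0.66 for the members and 0.51 for all genes. With all arrays centred on the ribosomal protein genes instead, the medians over all genes were 0.13, 0.03 and 0.11, and those of the members 0.83, 0.36 and 0.54.

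The called genes belonged to several families, counted here by the brightest probe of each gene. Of all genes, 11.4%, 13.8% and 10.1% rose and 13.7%, 11.9% and 12.1% fell under CuO, ZnO and NiO. With so few genes tested per family, the counts are not read as traits of a family. The SLC3 heavy chains gave 1 riser of 2 tested in each exposure. Among 8 SLC7 symbols, slc7a6os included, 1 rose and 2 fell in each exposure. Of those 2, slc7a6 passed the filter through the controls alone, which built in a lower exposed level. Among 9 SLC38 genes, 1, 2 and 2 rose and 2, 2 and 1 fell under CuO, ZnO and NiO. Of 19 SLC6 genes, 1, 2 and 1 rose, and 0 fell. The SLC6 gene that rose under CuO was slc6a4a, which passed the filter through CuO alone. Of 8 SLC1 genes, 1 rose, under NiO. Of 5 SLC43 genes, 1 rose in each exposure. Of 2 SLC15 genes, 1 fell under ZnO and NiO. The 2 SLC36 symbols had no matched probe.

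The counts in the SLC38 and SLC6 families depend on the probe. Of 21 members with more than 1 tested probe, 6 had a further probe that was called (adjusted over all fitted probes) in a comparison where the gene was not, and for slc38a7 and slc6a16b that probe went the other way. The same share over all genes with several probes is not given here, so this is not read as particular to the transporters. For slc38a7 the brightest probe gave 0.05, 0.42 and 0.10 in the order CuO, ZnO and NiO. Another gave -3.39, -2.65 and -2.74 (adjusted p = 0.00163, 0.00332 and 0.00613), and the other -3.14, -3.27 and -2.34, which did not pass. The direction of slc38a7 was therefore not settled by these data.

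For slc6a16b the brightest probe gave 0.88, 0.37 and 0.40 and was not called, and the other 3 of its 4 probes gave negative differences. The first of these gave -3.09, -2.37 and -2.17 (adjusted p = 0.00293, 0.00727 and 0.0141). The next gave -1.35, -0.70 and -1.68 and was called for CuO and NiO (adjusted p = 0.0297 and 0.0173), and the last gave -0.28, -0.65 and -0.65 and was not called. The direction of slc6a16b was thus not settled either. All 4 probes of slc38a6 gave negative differences. Its brightest was not called, at -0.75, -1.04 and -0.94, and another gave -3.41 with CuO (adjusted p = 0.0233) and -3.52 with ZnO (adjusted p = 0.0222). A further slc38a6 probe gave -1.18, -0.86 and -0.89 and was called for CuO alone (limma adjusted p = 0.0156). For slc38a4 the brightest probe gave 1.78 with CuO and was not called, whereas 2 further probes gave 1.84 and 1.95 and were (adjusted p = 0.0404 and 0.0492). The other 2 of the 6 were slc6a7 and slc15a2 with CuO. With the mean of all probes of a gene, 7 members were higher and 6 lower for CuO, 5 and 7 for ZnO, and 6 and 5 for NiO. Of all genes 23.2%, 20.6% and 19.7% were called in that fit, in either direction. There slc38a7 was lower in each exposure (adjusted p = 0.00297, 0.00624 and 0.0118).

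**Figure D1:**
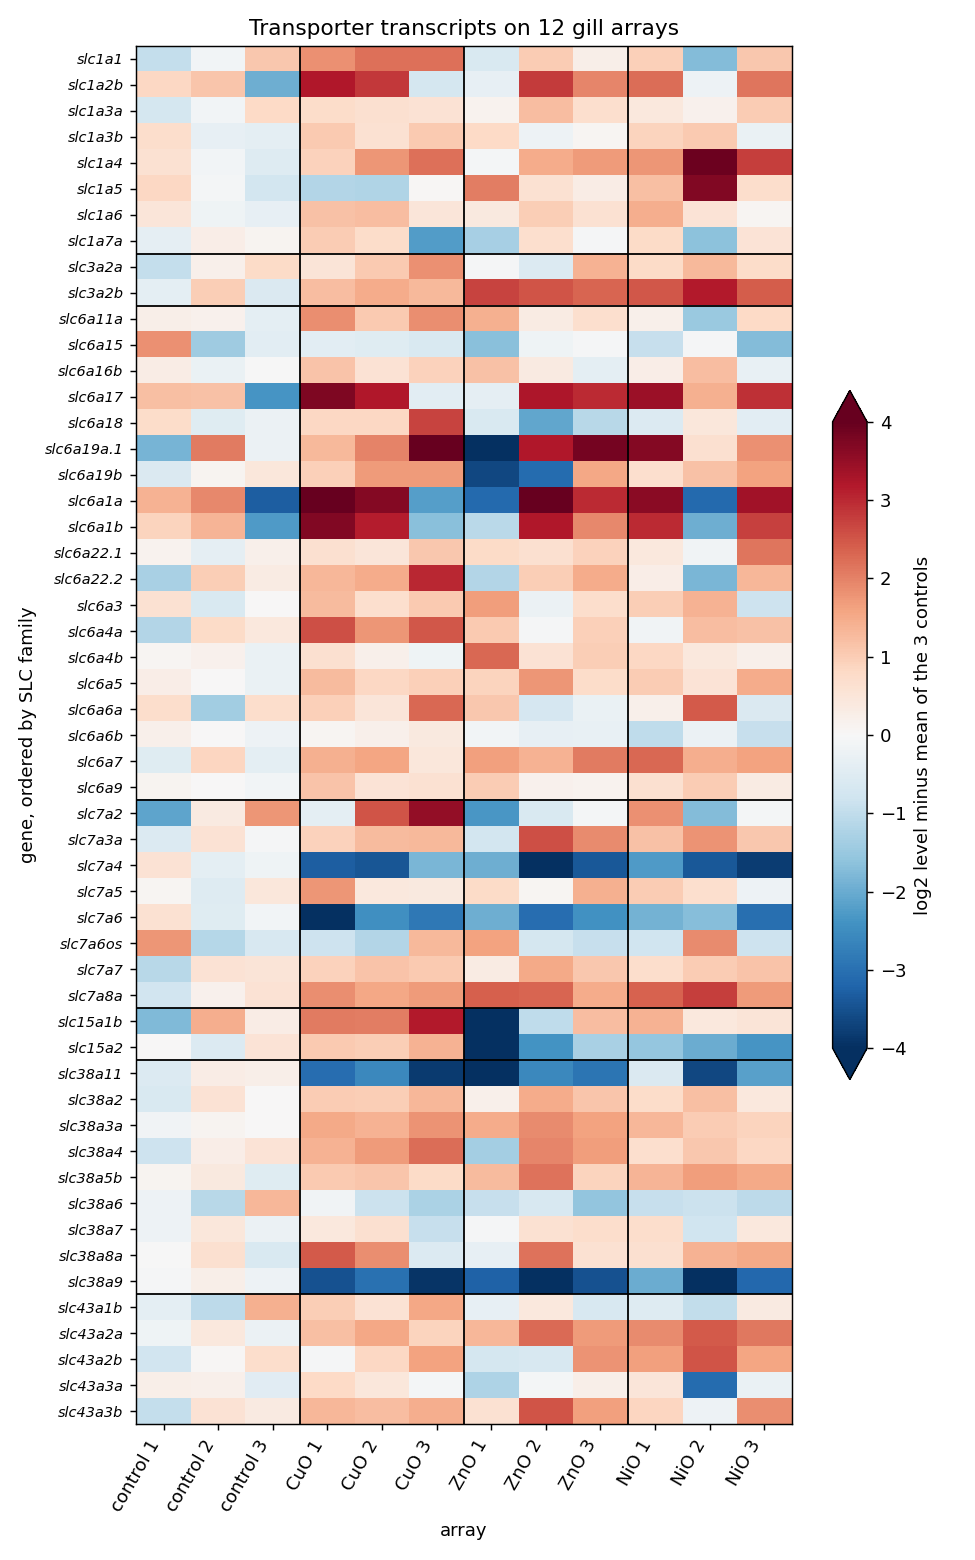
Log2 level of each of the 53 tested transporters (rows, ordered by SLC family) on each of the 12 arrays (columns, 3 per group), minus the mean of the 3 controls; red is higher and blue lower, and the colour scale ends at 4 in either direction. The deep blue cells of slc38a9, slc38a11, slc7a4 and slc7a6 fill most exposed columns, and slc6a1a and slc6a1b are blue on 1 array of each group.

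The heavy chain gene slc3a2b, whose product is also known as CD98, rose in all 3 exposures. Its level was -0.24, 1.13 and -0.42 in the controls, 1.39, 1.65 and 1.46 under CuO, 2.86, 2.69 and 2.48 under ZnO, and 2.66, 3.34 and 2.57 under NiO. Every exposed array lay above every control, and the ZnO and NiO arrays lay above those of CuO. The difference was 1.34 (SE 0.40, adjusted p = 0.0347) under CuO, 2.52 (adjusted p = 0.00336) under ZnO and 2.70 (adjusted p = 0.00434) under NiO, or 2.54-, 5.72- and 6.49-fold. A further probe of the gene gave 1.84, 2.48 and 3.23, and was not called for CuO (limma adjusted p over all fitted probes = 0.0916). The CuO call was lost without control 1, control 3, CuO 1, CuO 2 or CuO 3 (differences 1.06 to 1.40, adjusted p 0.0667 to 0.127), and with ribosomal centring (1.06, adjusted p = 0.0647). Its paralogue slc3a2a did not pass the test, at 1.14, 0.27 and 0.94.

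Among the light chains, slc7a8a, whose mammalian counterpart LAT2 exchanges neutral amino acids, rose in every exposure. It read -1.33, -0.37 and 0.04 in the controls, 1.29, 0.98 and 1.15 under CuO, 1.82, 1.77 and 0.93 under ZnO, and 1.80, 2.21 and 1.16 under NiO. All exposed arrays lay above all controls. The differences were 1.70 (SE 0.42, adjusted p = 0.0156), 2.06 (adjusted p = 0.00757) and 2.28 (adjusted p = 0.00726). All 4 tested probes of the gene gave positive differences, from 1.34 to 2.93, but not all were called. A further probe was called in no exposure (limma adjusted p over all fitted probes = 0.157, 0.0777 and 0.0517). Another was not called for CuO or ZnO (0.113 and 0.0709). The CuO call was lost without control 1 (1.31, adjusted p = 0.0502) or CuO 1 (1.62, adjusted p = 0.0576).

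The other light chains not called were slc7a5, whose product LAT1 takes up large neutral amino acids, at 0.86, 0.75 and 0.50, and slc7a7, which in mammals exchanges cationic for neutral amino acids, at 1.04, 0.97 and 0.96. Cationic amino acid carriers that work without a heavy chain did not pass either, with slc7a3a at 1.17, 1.25 and 1.34 and slc7a2 at 1.88, -1.004 and 0.0081. For slc7a5 the 95% intervals, in the order CuO, ZnO and NiO, ran from -0.27 to 1.99, -0.38 to 1.88 and -0.62 to 1.63. The cystine exchanger slc7a11 and the arginine carriers slc7a1a and slc7a1b had no matched probe and were not analysed here.

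The SLC43 gene slc43a2a, whose mammalian counterpart LAT4 lets branched-chain amino acids and other large neutral amino acids leave cells by facilitated diffusion, also rose in all 3. It stood at 1.19, 1.75 and 1.098 in the controls, 2.54, 2.90 and 2.24 under CuO, 2.68, 3.60 and 3.06 under ZnO, and 3.25, 3.78 and 3.46 under NiO. No exposed array overlapped the controls, and the lowest NiO array lay above the highest CuO array. The differences were 1.22 (SE 0.33, adjusted p = 0.0223), 1.77 (adjusted p = 0.00539) and 2.15 (adjusted p = 0.00454). The CuO call was lost without control 1, control 3, CuO 1 or CuO 2 (1.05 to 1.23, adjusted p 0.0656 to 0.0841). Its paralogue slc43a2b was not called, with differences of 0.80, 0.15 and 1.91 and an adjusted p of 0.0784 under NiO.

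Of the sodium-coupled glutamine carriers, slc38a3a had the smallest residual SD among the called genes and rose in all 3 exposures. Its mammalian counterpart SNAT3 moves glutamine, asparagine and histidine. It read -3.23, -3.00 and -3.09 in the controls, -1.61, -1.70 and -1.32 under CuO, -1.63, -1.21 and -1.51 under ZnO, and -1.77, -2.10 and -2.23 under NiO. The control mean was -3.11 ± 0.12 (SD, n = 3) and the 9 exposed arrays all lay above it without overlap. The differences were 1.57 (SE 0.24, adjusted p = 0.00271), 1.66 (adjusted p = 0.00237) and 1.07 (adjusted p = 0.0142). The NiO call was lost without control 3 (1.08, adjusted p = 0.0546).

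A related gene, slc38a5b, whose mammalian counterpart SNAT5 carries glutamine and other small neutral amino acids, rose under ZnO and NiO. Its levels were 1.67, 1.97 and 1.08 in the controls, 2.64, 2.67 and 2.33 under CuO, 2.84, 3.75 and 2.46 under ZnO, and 2.92, 3.25 and 3.09 under NiO. All exposed arrays were above the controls, although the CuO difference of 0.97 was not called (adjusted p = 0.0731). The ZnO and NiO differences were 1.44 (SE 0.36, adjusted p = 0.0175) and 1.51 (adjusted p = 0.0169). The calls were lost without control 3 (1.198 and 1.27), without ZnO 2 (1.08) for ZnO, and without NiO 2 (1.43) or NiO 3 (1.51) for NiO. A second probe gave 1.05 and 0.96 with an SE of 1.503, and the mean of both probes was not called (adjusted p = 0.287 and 0.293).

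The gene slc38a2, whose product SNAT2 is known from mammals to be induced when amino acids are withdrawn, did not pass in any exposure. It stood at 0.82, 2.02 and 1.45 in the controls, 2.46, 2.42 and 2.77 under CuO, 1.63, 2.92 and 2.54 under ZnO, and 2.16, 2.64 and 1.85 under NiO. Only the CuO arrays lay clear of the controls. The differences were 1.12 (adjusted p = 0.0706), 0.93 (adjusted p = 0.118) and 0.79 (adjusted p = 0.191).

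In the SLC1 family, slc1a4, whose mammalian counterpart ASCT1 exchanges alanine, serine and cysteine, rose under NiO. It read -4.97, -5.66 and -6.07 in the controls, -4.66, -3.79 and -3.35 under CuO, -5.63, -4.08 and -3.86 under ZnO, and -3.81, -1.63 and -2.80 under NiO. The NiO and CuO arrays were all above the controls, and 1 ZnO array lay among them. The NiO difference was 2.82 (SE 0.64, adjusted p = 0.0143), a 7.05-fold rise, and was lost without control 3 (2.57, adjusted p = 0.0618). The CuO and ZnO differences of 1.63 and 1.04 did not pass (adjusted p = 0.0869 and 0.257).

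The glutamine exchanger slc1a5 (ASCT2) and the glutamate carrier slc1a1 were not called. For slc1a5 the NiO arrays read -2.51, -0.02 and -3.04 beside controls of -2.91, -3.81 and -4.45, and the difference was 1.87 (adjusted p = 0.119). Its wide NiO spread came from NiO 2. For slc1a1 the CuO arrays read 1.09, 1.46 and 1.46 beside controls of -1.71, -0.85 and 0.32, all above them, with a difference of 2.08 (adjusted p = 0.0726).

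**Figure D2:**
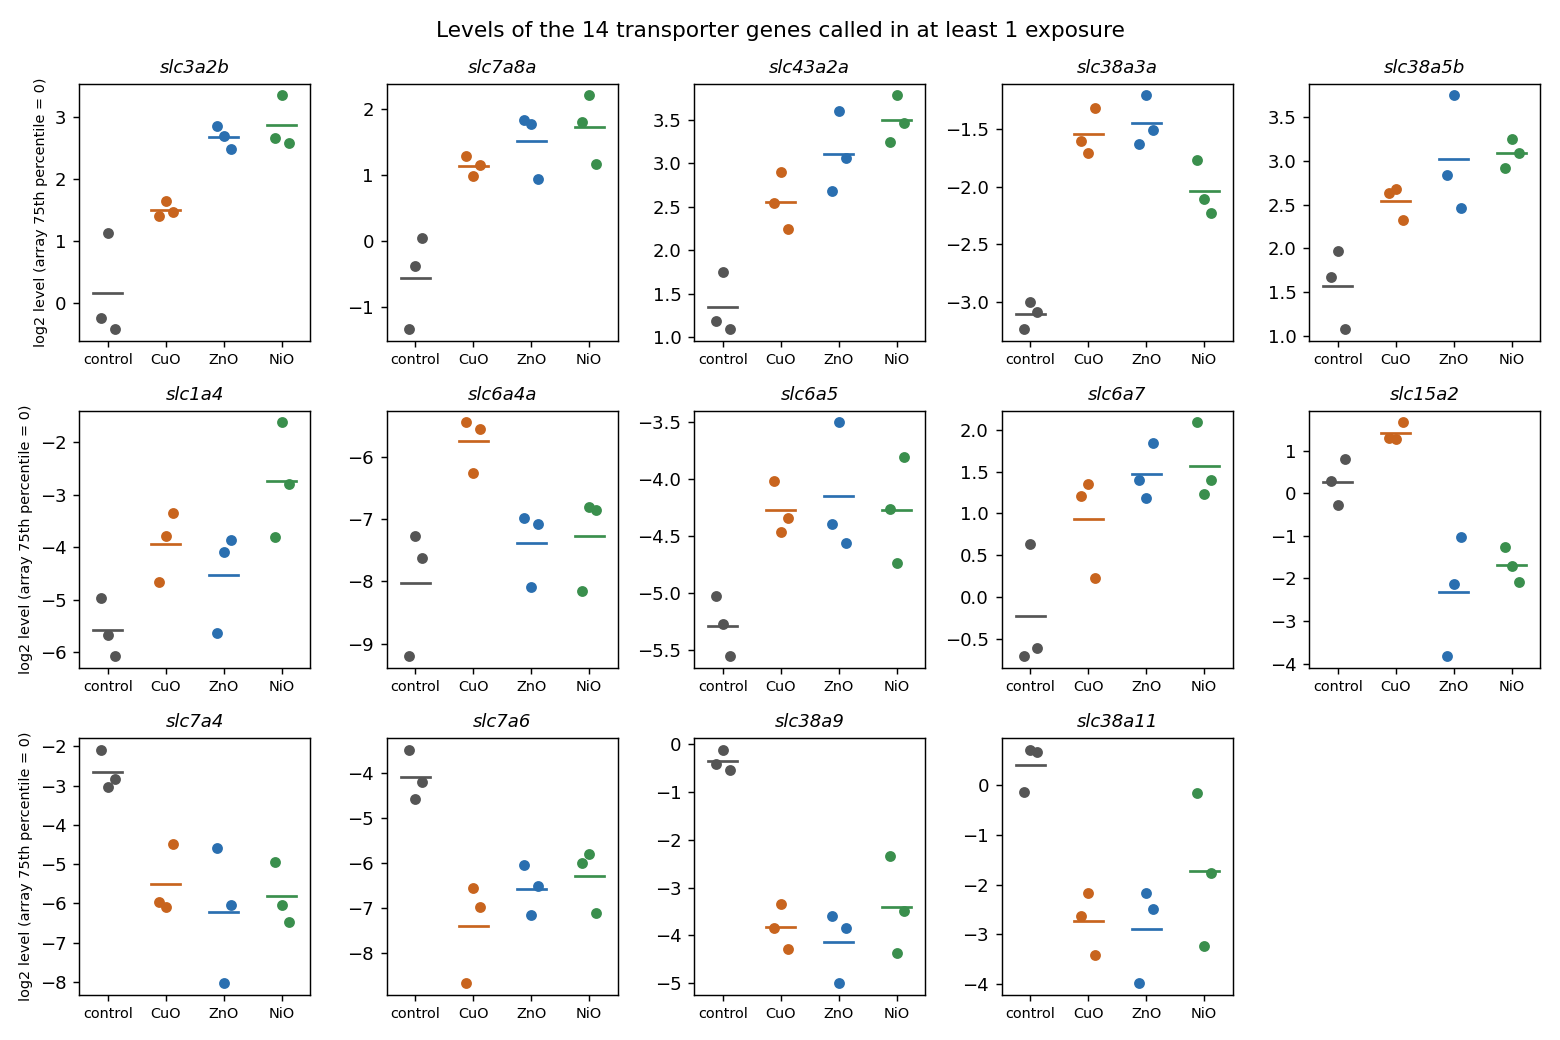
Log2 level (array 75th percentile = 0) of the 14 transporters called in at least 1 exposure; each point is 1 pool and each bar the mean of 3. The first 9 panels hold genes that rose in at least 1 exposure and the other 5 those that fell in at least 1 exposure. The CuO points of slc15a2 lie above the controls, and its ZnO and NiO points below them.

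Among the SLC6 carriers, slc6a7, a sodium- and chloride-coupled proline carrier in mammals, rose under ZnO and NiO. It stood at -0.70, 0.64 and -0.61 in the controls, 1.21, 1.35 and 0.23 under CuO, 1.40, 1.18 and 1.84 under ZnO, and 2.09, 1.23 and 1.40 under NiO. The ZnO and NiO arrays lay above all controls, whereas CuO 3 lay below control 2. The differences were 1.70 (SE 0.45, adjusted p = 0.0216) and 1.80 (adjusted p = 0.0199), beside 1.15 under CuO (adjusted p = 0.0849). Both calls were lost without control 1 (1.46 and 1.56) or control 3 (1.51 and 1.60), that of ZnO without ZnO 3 (1.52) and that of NiO without NiO 1 (1.54). With ribosomal centring the ZnO difference was 1.41 and not called (adjusted p = 0.0609). Another probe gave 1.15, 1.18 and 0.94 for CuO, ZnO and NiO (limma adjusted p over all fitted probes = 0.0238, 0.0233 and 0.0556). Which of CuO and NiO was called thus depended on the probe.

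The glycine carrier gene slc6a5 rose under ZnO by the narrowest margin among the genes called higher. It read -5.03, -5.28 and -5.55 in the controls, -4.02, -4.47 and -4.35 under CuO, -4.39, -3.51 and -4.56 under ZnO, and -4.26, -4.74 and -3.81 under NiO. All 9 exposed arrays were above the controls, with similar differences of 1.01, 1.13 and 1.01. The ZnO difference alone passed (SE 0.35, adjusted p = 0.0401, against 0.0608 and 0.0645). It was lost without control 1, control 2, control 3, ZnO 1 or ZnO 2 (0.81 to 1.26, adjusted p 0.0530 to 0.132), with the slide as a block (adjusted p = 0.0679) and with ribosomal centring (0.85, adjusted p = 0.150). Normexp correction (0.78), quantile scaling (1.23) and the percentile over detected probes (0.96) also ended this call.

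The serotonin carrier gene slc6a4a was well above background on the 3 CuO arrays and on 0 arrays of the other groups, so it passed the filter only by being higher there, and its p is given as a description. It read -9.20, -7.28 and -7.62 in the controls and -5.45, -6.26 and -5.56 under CuO, beside -6.99, -8.09 and -7.07 under ZnO and -8.16, -6.81 and -6.85 under NiO. The 3 CuO arrays lay above the other 9. CuO was at least 2.83-fold higher than the controls (adjusted p = 0.0167), a bound set against the lowest signal that counts as well above background. The call was lost without control 1 (1.69, adjusted p = 0.0502) or CuO 1 (2.12, adjusted p = 0.0627), with normexp background correction (0.65) and with quantile scaling (1.65). The dopamine carrier slc6a3 was also above background on all 3 CuO arrays and on 0 control arrays, and did not pass (adjusted p = 0.254).

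Taurine is an osmolyte of fish cells, and neither taurine carrier gene passed. The differences of slc6a6a were 1.24, 0.05 and 0.70 and those of slc6a6b 0.22, -0.25 and -0.72, the last with an adjusted p of 0.0805. The NiO arrays of slc6a6b, at -3.45, -2.67 and -3.36, all lay below the controls at -2.24, -2.43 and -2.64. The gap between the closest of these arrays, NiO 2 and control 3, was small. A second probe of slc6a6b gave 1.15, 0.26 and 0.0039 for CuO, ZnO and NiO and was not called, so the lower NiO level was not seen with it.

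The peptide carrier slc15a2, whose mammalian counterpart PEPT2 takes up di- and tripeptides with high affinity, fell under ZnO and NiO. It read 0.29, -0.28 and 0.81 in the controls, 1.304, 1.27 and 1.66 under CuO, -3.82, -2.12 and -1.02 under ZnO, and -1.27, -1.72 and -2.07 under NiO. The ZnO and NiO arrays were all below the controls and the CuO arrays all above them. The ZnO difference was -2.59 (SE 0.60, adjusted p = 0.0131), the NiO difference -1.96 (adjusted p = 0.0419) and the CuO difference 1.14, which did not pass (adjusted p = 0.181). A second probe gave -2.55, -1.55 and 2.03 in the same order, and was not called for NiO (limma adjusted p over all fitted probes = 0.124).

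Both falls of slc15a2 were sensitive to single arrays. The ZnO call was lost without control 3 (-2.32, adjusted p = 0.0563). The NiO call was lost without any one of the 6 arrays compared (-2.23 to -1.69, adjusted p 0.0512 to 0.144), with the slide as a block (adjusted p = 0.0537) and with the mean of both probes (-1.75, adjusted p = 0.0596). ZnO 1, the array low in pancreas and intestine markers and in liver and plasma markers, was also the lowest for slc15a2. Without it the ZnO difference was -1.84 and still called (adjusted p = 0.0213).

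The other peptide carrier, slc15a1b, the counterpart of the intestinal carrier PEPT1, was not called in any exposure. Its ZnO arrays read -5.50, -1.39 and 0.87, with controls at -2.11, 1.1004 and -0.06. A similar low value in ZnO 1 was seen for slc6a19a.1, at -8.31, and slc6a19b, at -3.15, which are related to the neutral amino acid carrier of mammalian intestine and kidney. In ZnO 2 slc6a19b was also low, at -2.57. These 3 genes had SDs of 3.23, 5.53 and 2.85 within the ZnO group (n = 3), among the 5 widest of the members. Since slc6a19a.1 was well above background on 2 of the 3 ZnO arrays, the size of its spread is uncertain. The part of the pancreas and intestine markers, or of the liver and plasma markers also low in ZnO 1, in these values was not tested.

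**Figure D3:**
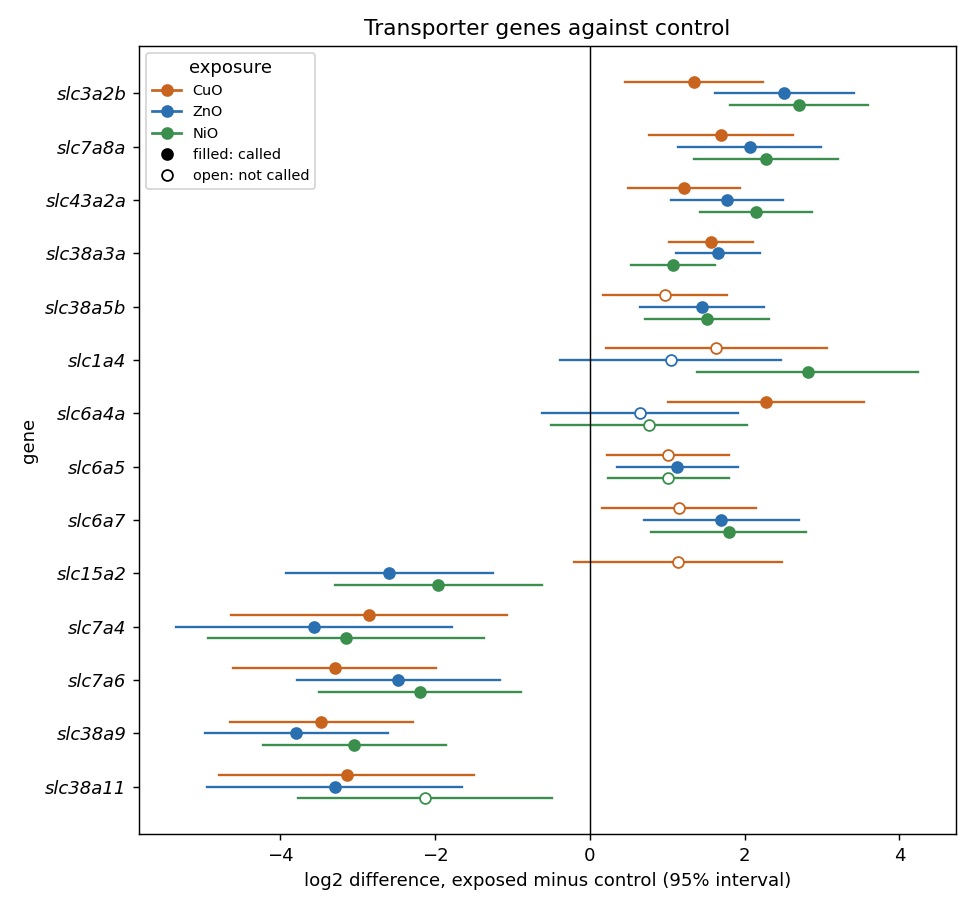
Log2 difference from the controls for the 14 called transporters (rows), with the 95% interval of the fit; filled points are called at an adjusted p under 0.05 and open points are not. The intervals of slc3a2b, slc7a8a, slc43a2a and slc38a3a lie above 0 in all 3 exposures, and those of slc7a4, slc7a6, slc38a9 and slc38a11 below 0.

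Among the genes that fell, slc38a9, the arginine-sensing carrier of the lysosome in mammals, fell in all 3 exposures. It stood at -0.41, -0.11 and -0.55 in the controls, -3.85, -3.34 and -4.29 under CuO, -3.60, -5.00 and -3.85 under ZnO, and -2.33, -4.38 and -3.49 under NiO. The control mean was -0.36 ± 0.22 (SD, n = 3), and NiO 1 was the exposed array closest to it. The differences were -3.47 (SE 0.53, adjusted p = 0.00257), -3.79 (adjusted p = 0.00209) and -3.04 (adjusted p = 0.00660), or 11.1-, 13.9- and 8.25-fold lower. A second probe gave -5.10, -4.75 and -4.34. Each of these calls held with any single array of its own 2 groups left out.

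The gene slc38a11, a member of the same family, fell under CuO and ZnO. Its levels were -0.14, 0.71 and 0.66 in the controls, -2.62, -2.16 and -3.42 under CuO, -3.98, -2.18 and -2.50 under ZnO, and -0.16, -3.23 and -1.77 under NiO. NiO 1 reached the level of control 1, and the other 8 exposed arrays were far below. The differences were -3.15 (SE 0.74, adjusted p = 0.0128) and -3.30 (adjusted p = 0.0116). Under NiO it was -2.13 and not called (adjusted p = 0.0642), and without NiO 1 it was -2.91 and called (adjusted p = 0.0161).

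A relative of the cationic amino acid carriers, slc7a4, fell in all 3 exposures. It read -2.09, -3.04 and -2.84 in the controls, -5.97, -6.08 and -4.48 under CuO, -4.60, -8.03 and -6.03 under ZnO, and -4.93, -6.04 and -6.46 under NiO. No exposed array overlapped the controls. The differences were -2.85 (SE 0.80, adjusted p = 0.0271), -3.57 (adjusted p = 0.0116) and -3.16 (adjusted p = 0.0209). The gene was well above background on 2 of the 3 ZnO arrays, so the size of the ZnO difference is uncertain. Without ZnO 2 it was -2.66 and still called (adjusted p = 0.0318). The CuO call was lost without control 1, control 3, CuO 1 or CuO 2 (-2.94 to -2.57), and the NiO call without control 1, control 3, NiO 2 or NiO 3 (-3.25 to -2.83).

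The light chain gene slc7a6, whose mammalian counterpart exchanges cationic for neutral amino acids with sodium, fell in all 3 exposures. It stood at -3.49, -4.59 and -4.21 in the controls, -8.66, -6.56 and -6.97 under CuO, -6.04, -7.15 and -6.51 under ZnO, and -5.99, -5.79 and -7.10 under NiO. It was well above background on all 3 controls but on 1 CuO, 2 ZnO and 2 NiO arrays. It therefore passed the filter through the controls alone, which builds in a lower exposed level, and its p is given as a description. The size of the differences is uncertain where arrays were at background. The differences were -3.30 (SE 0.59, adjusted p = 0.00415), -2.48 (adjusted p = 0.0142) and -2.20 (adjusted p = 0.0253). The ZnO call was lost without control 1 or ZnO 2 (-2.17 and -2.18), and the NiO call without control 1, control 3 or NiO 3 (-2.26 to -1.80).

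The adjacent gene slc7a6os carries a transporter symbol only because it lies beside slc7a6, and its product is not a membrane carrier. It did not follow slc7a6. Its level was 1.14 in control 1, 0.65 in CuO 3, 0.96 in ZnO 1 and 1.24 in NiO 2, and between -1.81 and -1.29 in the other 8 arrays, so that 1 array of each group stood apart. The differences from control were -0.23, 0.00 and 0.09.

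Oocyte markers were lower in the same exposures as slc38a9, slc38a11, slc7a4 and slc7a6. Of 30 oocyte markers tested 27, 27 and 26 fell under CuO, ZnO and NiO (90%, 90% and 86.7%, beside 13.7%, 11.9% and 12.1% of all genes), and 17 were above background on all arrays. Their summed linear level, in units of the array's 75th percentile, was 408 to 529 in the controls. It was 30.3 to 31.5 with CuO, 27.3 to 33.1 with ZnO and 29.0 to 237 with NiO. The markers zpcx and btg4 were above background on no ZnO array. NiO 1 was the exposed array with the highest oocyte markers, although they lay below those of every control. It was the highest NiO array for slc38a9, slc38a11 and slc7a4 but not for slc7a6. For slc7a4, CuO 3 (-4.48) and ZnO 1 (-4.60) lay above NiO 1 (-4.93), with oocyte marker medians of -3.55 and -5.43 against 2.61. The part of oocyte transcripts in these falls was not tested.

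Several marker lists were higher in the exposures in which transporters rose. Of 20 epithelial markers 5, 8 and 8 rose under CuO, ZnO and NiO (25%, 40% and 40%, beside 11.4%, 13.8% and 10.1% of all genes). Of 21 ionocyte markers 2, 5 and 4 rose (9.52%, 23.8% and 19%, the first below the share of all genes), with 0 falling in either list. The summed level of the epithelial markers was 161 to 193 in the controls. It was 245 to 311 with CuO, 254 to 359 with ZnO and 264 to 355 with NiO. That of the ionocyte markers was 90.8 to 128 in the controls and 118 to 149, 101.5 to 189 and 122 to 153 in the same order.

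Markers of other cell types were counted in the same way. Of 25 pituitary and brain markers 6, 4 and 2 rose (24%, 16% and 8%, beside 11.4%, 13.8% and 10.1% of all genes), so the share was above that of all genes for CuO, near it for ZnO and below it for NiO. A single one fell, with ZnO (4%), and the medians were 1.93, 1.68 and 1.33. Their summed level was 10.3 to 26.4 in the controls, 23.7 to 65.0 for CuO, 29.4 to 73.3 for ZnO and 27.9 to 50.0 for NiO, so all ZnO and NiO arrays lay above the controls. The marker tshba was above background on no control array and fshb on no ZnO or NiO array.

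Of 9 myeloid markers 1, 3 and 2 rose (11.1%, 33.3% and 22.2%, beside the same shares of all genes). Their sum ran from 7.45 to 30.9 in the controls and from 31.8 to 32.7, 30.0 to 44.2 and 27.5 to 58.2 in the order CuO, ZnO and NiO. Of 11 lymphocyte markers 3, 2 and 0 rose (27.3%, 18.2% and 0%), above the share of all genes for CuO and ZnO. Of 13 erythrocyte markers 2, 1 and 0 rose (15.4%, 7.69% and 0%), above that share for CuO alone. The sum of the lymphocyte markers was 2.16 to 2.66 in the controls, 5.67 to 8.42 for CuO, 3.06 to 6.40 for ZnO and 1.70 to 4.20 for NiO, and that of the erythrocyte markers 15.8 to 38.2, then 41.6 to 42.0, 29.8 to 58.1 and 20.3 to 44.0. Of 28 liver and plasma markers 4, 5 and 4 fell (14.3%, 17.9% and 14.3%), and 1 rose, with NiO. The shares that fell were close to the 13.7% and 12.1% of all genes for CuO and NiO and above the 11.9% for ZnO. Their sum was 203 to 547 in the controls, 385 to 527 for CuO, 16.3 to 488 for ZnO and 209 to 489 for NiO. The part of these cell types in the rise of slc3a2b, slc7a8a, slc43a2a, slc38a3a and the other transporters called higher, slc6a4a, slc6a5 and slc6a7 among them, was not tested.

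Some members that are best known from nerve and retina split the arrays in another way, and others did not. The glutamate carrier slc1a2b and the GABA carriers slc6a1a and slc6a1b were lower on control 3, CuO 3, ZnO 1 and NiO 2 than on each of the other 8 arrays. These are the 4 arrays low in lens and retina markers, and 2.44% of all genes tested showed the same separation. For slc6a1a the 4 arrays read -6.05, -4.97, -5.85 and -5.86, and the other 8 ran from -1.37 to 1.52. For slc6a1b the values were -3.95, -3.36, -2.76 and -3.63 against -0.77 to 2.03. For slc1a2b they were -1.91, -0.65, -0.28 and -0.16 against 0.89 to 3.25. The glutamate, glycine and dopamine carrier genes slc1a1, slc6a5 and slc6a3 showed no such separation. On the 4 arrays slc1a1 ran from -2.48 to 1.46, slc6a5 from -5.55 to -4.35 and slc6a3 from -7.54 to -5.88. On the other 8 they ran from -1.71 to 1.46, -5.28 to -3.51 and -8.38 to -6.30.

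None of slc1a2b, slc6a1a and slc6a1b was called in an exposure, and their SD within a group ran from 1.39 to 3.87 (n = 3). The amino acid carrier slc6a17, a synaptic vesicle protein in mammals, came close to the same split, with -4.91, -2.97, -2.89 and -1.12 on the 4 arrays and -1.37 to 1.19 on the others. The part of eye tissue in these levels was not tested.

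**Figure D4:**
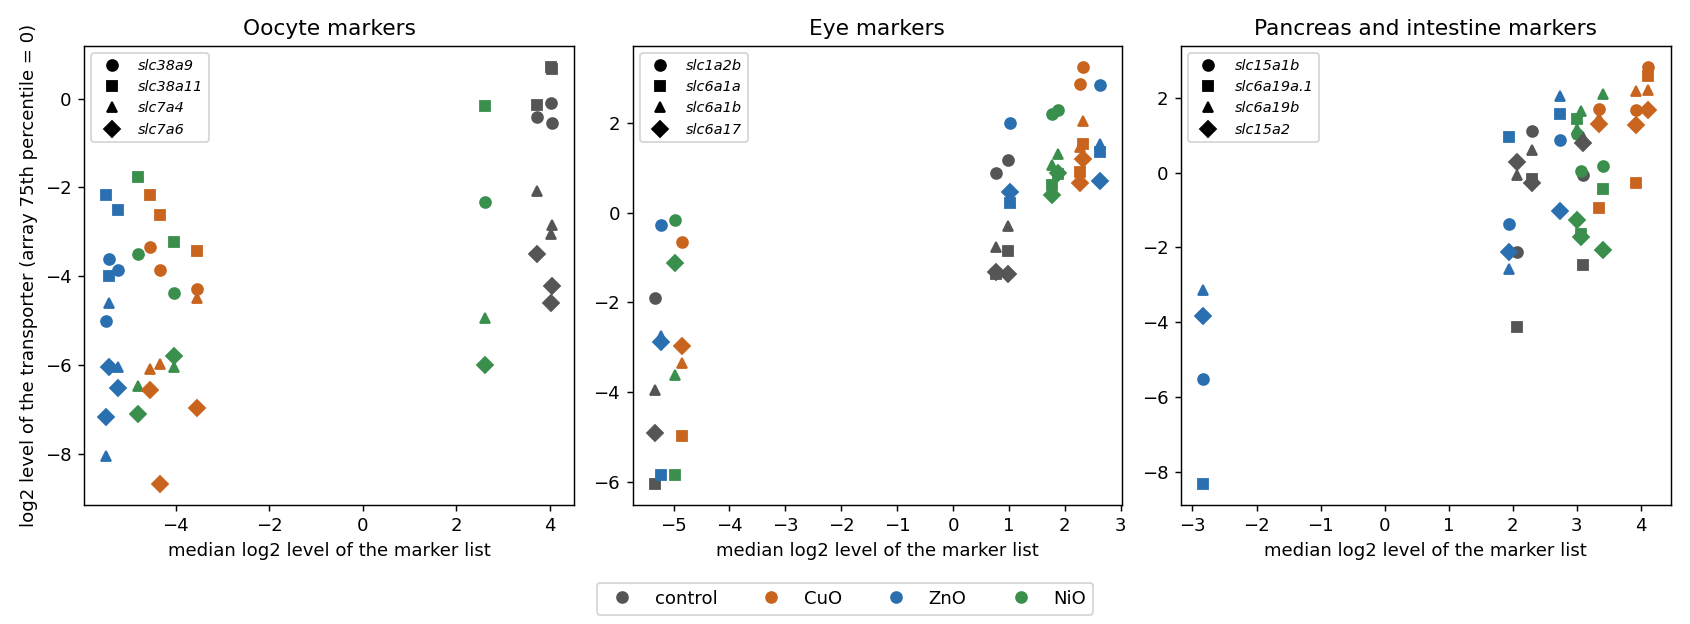
Log2 level of 4 transporters against the median log2 level of a marker list on the same array, for oocyte (left), eye (middle) and pancreas and intestine markers (right); each point is 1 array, its colour the group and its shape the gene. Control arrays and NiO 1 lie at the right of the oocyte panel, 1 array of each group lies at the left of the eye panel, and ZnO 1 lies alone at the left of the third panel.

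With the 4 arrays low in eye markers left out, each group kept 2 arrays and 13 of the 32 called differences were still called. Under CuO, slc7a8a, slc38a3a, slc38a9, slc38a11 and slc7a4 were still called, as was slc7a6, for which the filter built in a lower exposed level. Not called there were slc3a2b (1.07, adjusted p = 0.140), slc43a2a (1.25, adjusted p = 0.0561) and slc6a4a (2.38, adjusted p = 0.0678). Under ZnO, slc3a2b, slc7a8a, slc43a2a, slc38a3a, slc38a9, slc38a11 and slc7a4 were still called. Those not called were slc38a5b (1.29, adjusted p = 0.0911), slc6a5 (1.12, adjusted p = 0.115), slc6a7 (1.54, adjusted p = 0.0839), slc15a2 (-1.57, adjusted p = 0.0683) and slc7a6 (-2.80, adjusted p = 0.0545).

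Under NiO 0 members were called by limma without these arrays, and 5 of all genes tested were called. An unadjusted p under 0.05 was seen for 23 members, and the share of all genes at that p is not given here. The differences kept their direction, for example 2.17 for slc3a2b (adjusted p = 0.0592), 2.33 for slc7a8a (adjusted p = 0.0564), 1.89 for slc43a2a (adjusted p = 0.0555) and -2.65 for slc38a9 (adjusted p = 0.0564). The adjusted p of the 11 genes called under NiO ran from 0.0555 to 0.133.

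A fit of only the 2 groups compared ended 7 of the 32 calls, namely slc3a2b under CuO, slc38a5b, slc6a5, slc6a7 and slc15a2 under ZnO, and slc38a3a and slc6a7 under NiO.

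Between the exposures, 0 members were called in any of the 3 pairs, where 0% of all genes were called. At an unadjusted p under 0.05 there were 9 members for CuO against ZnO, 10 for CuO against NiO and 4 for ZnO against NiO, beside 1252, 784 and 620 of all genes. Weighting the arrays by quality in limma called 2, 2 and 0 members, beside 112, 70 and 0 of all genes. These were slc15a2 (2.80, adjusted p = 0.0351) and slc6a18 (2.15, adjusted p = 0.0365) higher under CuO than ZnO, and slc15a2 (2.91, adjusted p = 0.0250) and slc6a6b (1.08, adjusted p = 0.0365) higher under CuO than NiO.

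The largest difference between exposures with no overlap of arrays was that of slc15a1b, at 4.08 for CuO against ZnO (95% interval 1.07 to 7.09), which did not pass (adjusted p = 0.398). Next came slc15a2, at 3.73 (2.39 to 5.07, adjusted p = 0.228). Without ZnO 3, slc15a2 passed for CuO against ZnO (4.39, adjusted p = 0.0239), as did slc6a19b (4.81, adjusted p = 0.0169), which also passed for ZnO against NiO (-4.50, adjusted p = 0.0302). For slc3a2b, CuO minus ZnO was -1.17 (interval -2.07 to -0.28, adjusted p = 0.415) and ZnO minus NiO was -0.18 (-1.08 to 0.71). The intervals for slc7a8a were -1.298 to 0.56 for CuO against ZnO and -1.14 to 0.72 for ZnO against NiO.

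Genes of the surrounding pathways were counted from lists of known function. Of 31 tested genes of the amino acid response, 2 rose and 3 fell under CuO, 7 and 2 under ZnO, and 6 and 1 under NiO. These are 6.45% and 9.68%, 22.6% and 6.45%, and 19.4% and 3.23%, so the share that rose was below that of all genes (11.4%) for CuO and above it (13.8% and 10.1%) for ZnO and NiO. The median difference was 0.23, 0.75 and 0.44, beside the 0.42, 0.32 and 0.27 of all genes. Asparagine synthetase (asns) rose by 1.25, 2.32 and 1.94 (adjusted p = 0.0336, 0.00336 and 0.00821), and the proline synthesis gene pycr1a by 1.48, 1.34 and 1.39. The gene atf4b, one of 2 zebrafish counterparts of ATF4, rose under ZnO (1.63, adjusted p = 0.0153) and NiO (1.33, adjusted p = 0.0368) and not under CuO (0.71, adjusted p = 0.200). The other counterpart, atf4a, was not called in any exposure (0.40, 0.28 and 0.25). Nor were chac1, ddit3, trib3 and sesn2 of the same list. The stress-response factor gene atf3 gave 1.04, which was not called, for CuO and rose with ZnO (2.72, adjusted p = 0.00500) and NiO (1.64, adjusted p = 0.0371). By contrast aldh18a1, another proline synthesis gene, fell (-2.18, -1.66 and -1.87).

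Of 25 tested genes of amino acid sensing by mTORC1, 4 rose and 4 fell under CuO, 4 and 2 under ZnO, and 3 and 2 under NiO, with medians of -0.11, 0.29 and -0.22. The shares were 16% and 16%, 16% and 8%, and 12% and 8%, beside 11.4% and 13.7%, 13.8% and 11.9%, and 10.1% and 12.1% of all genes. The kinase gene mtor rose by 1.36, 1.37 and 1.33, and sesn3, whose product belongs to the sestrin family, by 2.09, 1.25 and 1.53. The folliculin partner fnip1 rose by 1.45, 2.02 and 1.60. The lysosomal anchor lamtor1 fell (-3.27, -3.35 and -2.58, the ZnO value without 1 array whose spot was an outlier), as did rragca, which encodes a Rag GTPase (-1.44, -1.08 and -1.301). Other subunits of the same anchor and GTPase complexes gave mixed values. For CuO, lamtor2 (-1.54, adjusted p = 0.0350) and lamtor3 (-1.55, adjusted p = 0.0260) fell, and neither passed with ZnO or NiO. Those not called in any exposure were lamtor4 (-0.48, 0.22 and -0.31), rraga (-0.12, 0.29 and -0.20) and rragd (-0.34, 0.30 and -0.61). Oocyte markers fell in the same exposures, and their part in these values was not tested.

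Of 19 tested genes of glutathione synthesis and cystine use, 2 rose and 1 fell under CuO, and 5 and 2 rose under ZnO and NiO with 0 falling, and the medians were 0.61, 0.63 and 0.42. The shares that rose were 10.5%, 26.3% and 10.5%, beside the 11.4%, 13.8% and 10.1% of all genes. The quinone reductase nqo1 rose by 1.53, 2.49 and 1.66 and keap1a, whose product restrains the antioxidant factor Nrf2, by 1.17, 1.42 and 1.09. The glutamate-cysteine ligase subunit gclm fell under CuO (-1.31, adjusted p = 0.0377), and the glutathione reductase gsr rose under ZnO (1.25, adjusted p = 0.00743), as did the glutathione transferase gstp1.1 (3.15, adjusted p = 0.00457). Of 22 other amino acid carriers and partners, 2 rose and 3 fell under CuO, 3 and 4 under ZnO, and 2 and 3 under NiO, with medians of -0.19, -0.17 and 0.08. One of the 22 is slc7a6os, already counted above and not called. As shares, 9.09% rose and 13.6% fell for CuO, 13.6% and 18.2% for ZnO, and 9.09% and 13.6% for NiO. Among them the mitochondrial serine carrier sfxn1 rose by 1.42, 1.69 and 2.12, whereas its paralogue sfxn3 fell (-2.21, -1.68 and -1.98). The lysosomal sialic acid carrier slc17a5 rose by 1.25, 1.14 and 1.21, and slc25a44a, counterpart of a mitochondrial branched-chain amino acid carrier, fell (-2.65, -2.28 and -2.20).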

How the data were processed

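Total RNA from 12 gill pools was labelled with cyanine 3 and hybridised to Agilent zebrafish arrays, per the labels' protocols. Those protocols also mention a dye swap, but each file holds 1 channel. Per the file headers, the authors read the images with Feature Extraction 11.5.1.1, which gave a background-subtracted processed intensity per spot and marks outlier spots, saturated spots and those well above background. The series table the authors deposited gives linear intensity values per probe, equal within 0.1% to processed signals of the scanner files. The submitters' processing notes name MAS5, with no role given.

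Control and outlier spots were left out and repeated spots averaged. Analysed values were log2 of the processed intensity in the scanner files minus the 75th percentile of the array. Probes were tested where well above background on every array of some group (3 arrays), which left 37344 of 43603 probes, and a gene was represented by its brightest probe. Symbols came from RefSeq accessions (26094 probes matched 1 symbol, 0 several) through the GRCz12tu annotation, and no coordinates are given. A single limma fit (limma 3.58.1, R 4.3.3) of 4 group means over 12616 genes gave all tests. It was also run on simulated data with independent noise per gene. Differences shared by many genes of an array, such as those of other tissues, were not simulated, so that run does not test the fit for them. The 3 arrays per group limit the precision, and p-values set group differences against the spread between pools, estimated over the 4 groups together.

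Members and lists were chosen with earlier results of these data known. Genes are named if called with arrays of the 2 groups not overlapping, if above background in 1 group alone, if among 24 symbols chosen for their roles (16 tested), if among the 5 with the widest spread, or if among up to 4 called genes of a pathway list, a choice made with their values in view. The members slc1a2b, slc6a17, slc6a18, slc7a6os, slc38a4, slc38a6, slc38a7, slc6a16b, slc7a2, slc7a7, slc15a1b between exposures and those called between exposures under an alternative were singled out after their values were seen. So were the further pathway genes lamtor2, lamtor3, lamtor4, rraga, rragd, fnip1, atf3, gstp1.1, atf4a, chac1, ddit3, trib3 and sesn2. The member slc1a7a and the count without genes that passed the filter through 1 group alone were also chosen after seeing the data. Slides 1, 2 and 3 each held the array of that replicate number from all 4 groups, so slide and replicate number are the same block, and position on the slide and group cannot be told apart. Over 18 same-numbered pairs of arrays, deviations from the group means correlated at r = -0.58 to 0.48, above 0.1 in 7, so the numbers were not taken as pairs. Alternatives changed background correction, scaling, filter, probe choice, source, weights, block and samples. The alternative background correction used the median spot signal, since the mean signal was not among the columns used here.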

Additional observations from a re-analysis of the deposited data

Results flagged for a closer look

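For 2 transporters, every array of one exposure lay above all controls and every array of another lay below all controls. The share of all genes with such a pattern is not given here, so the count is not read as a trait of the transporters. For slc15a2 the difference between CuO and ZnO was 3.73 on the log2 scale (limma adjusted p = 0.2281) and that between CuO and NiO was 3.10 (adjusted p = 0.208), so neither difference between exposures passed the test. For slc6a18, which is related to a neutral amino acid carrier of mammalian kidney, CuO and ZnO differed by 2.71 (adjusted p = 0.3069). Its levels were -4.29, -5.51 and -5.24 in the controls, -4.19, -4.20 and -2.32 under CuO, and -5.63, -7.09 and -6.13 under ZnO, and neither exposure was called against the controls (adjusted p = 0.0999 and 0.143). CuO 1 and CuO 2 lay only just above control 1. The gene was well above background on 2 of the 3 ZnO arrays, so the size of the difference is uncertain.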

How the results depend on the processing

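Members called were 9 under CuO, 12 under ZnO and 11 under NiO, beside 25.1%, 25.7% and 22.2% of all genes. Array weights gave 28, 19 and 15 (beside 51.4%, 37.7% and 35.4% of all 12616 genes), with 2, 2 and 0 for CuO against ZnO, CuO against NiO and ZnO against NiO. Fitting only the groups compared gave 14, 8 and 9 (25.2%, 14.0% and 11.8% of all genes). The series table read by its column names gave 0, 0 and 0. There, against the main signs, slc15a2 under NiO was 0.30, slc38a11 under CuO 1.75 and under ZnO 0.70, slc38a9 under CuO 0.73, slc6a5 under ZnO -0.087, slc6a7 under ZnO -0.0026, and slc7a6 under CuO 0.39 and under ZnO 0.38; 10 of its 12 columns hold another sample's array. Without the 4 arrays low in eye transcripts the counts were 13, 11 and 0 (21.3%, 15.3% and 0.0396% of all genes). Leaving out single arrays gave 4 to 12 for CuO, 8 to 15 for ZnO and 4 to 12 for NiO. In the same fits 14.6% to 27.2%, 12.2% to 27.8% and 7.62% to 23.3% of all genes were called. For the pairs of exposures in the order above the counts were 0 to 2, 0 and 0 to 1. These stood beside at most 0.277%, 0.0159% and 0.00793% of all genes. The lowest counts came without CuO 1 or control 1 for CuO (4 each, beside 14.6% and 18.5% of all genes). For ZnO and NiO they came without control 3 (8 and 4, beside 12.2% and 7.62%). The count was also 6 for CuO without CuO 2 (beside 17.0%) and 7 for NiO without control 1 or NiO 3 (beside 13.7% and 11.6%). Where fits differ only in arrays or weights, the cause was not tested. Normexp, quantile scaling, the percentile over detected probes, ribosomal centring, no filter, probes above background on all arrays and the mean of probes gave 6 to 13 for CuO, 10 to 12 for ZnO, and 9 to 12 for NiO. Of all genes 19.6% to 27.0%, 18.2% to 27.7% and 18.2% to 23.9% were called in these fits.

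With the replicate number as a block, which is also the slide, the counts were 11, 12 and 11, beside 23.6%, 23.3% and 20.3% of all genes. There slc15a2 under NiO and slc6a5 under ZnO lost their calls and the other 30 of 32 kept theirs. The replicate numbers did not pair the arrays. A single slide holds 1 array per group and gives no test. Of the 32 called differences, 15 kept their call with each array of their own 2 groups left out. Dim genes such as slc7a6 and slc6a4a are limited by background, and a difference for these 2 genes was built into the filter.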
